A study of Gallus gallus with 8 samples.

Results

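Distal wing bud mesenchyme of the chick was compared between stage HH27 and stage HH24 of the Hamburger and Hamilton (HH) series. The 6 libraries were those titled HH27 (3) and HH24 (3), out of 8 libraries in the series. The other 2 (HH24g) came from mesoderm grafted into older hosts. They entered the filter on low genes, the scaling and the fit's estimate of spread. Both stages carried the WT genotype and no treatment. The HH27 tissue was ungrafted mesenchyme from the wing opposite a graft, so its embryos were graft hosts. The HH24 tissue came from other embryos, which the methods do not describe as operated on. Each library pooled small blocks of the distal-most tissue from several wings, and total RNA was sequenced after depletion of ribosomal RNA. The stages were handled as separate sets of embryos, so stage and any difference in handling cannot be told apart.

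The distal mesenchyme lies under the apical ectodermal ridge, which keeps it growing through Fgf ligands, while the posterior margin signals through Shh and the ectoderm through Wnt and Bmp ligands. Between these stages the wing bud lengthens and the hand plate (autopod) begins to form. The study places both stages in its late distal phase, in which the wrist and digits are specified. Position along the limb is marked by the Hox genes, a family of homeobox transcription factors. Their order on the chromosome matches the order in which they act along the limb. Those of paralog groups 9 to 11 act in the upper arm and forearm and those of group 13 in the autopod. Bmp signalling restrains growth at the tip as the limb matures and takes part in cartilage and joint formation.

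Reads per library were 3407583, 1697272 and 5095662 in HH27 replicates 1 to 3, against 2157683, 3108086 and 1855991 in HH24 replicates 1 to 3. Only part of these matched a gene, 51.9 to 66.2% in HH27 and 9.24 to 53.3% in HH24. HH24 replicate 2 was the library at 9.24%, and 1 transcript without a gene match took 74.3% of its reads. Its scaled depth was 128271 reads, against 934614 to 3849969 in the other 5 libraries, so that 1 read there was worth 7.80 CPM (counts scaled to a common library size). Its correlation with the other HH24 libraries over log2 CPM was 0.720 and 0.722, against 0.853 between HH24 replicates 1 and 3 and 0.890 to 0.939 within HH27. Called genes and list counts are therefore given with and without it. All levels below are CPM after scaling to the library size, in the order of replicates 1 to 3, or a mean ± SD over the 3 libraries of a stage. They keep transcript length, so levels are compared between stages and not between genes.

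The tissue expressed the markers of limb mesenchyme. PRRX1, a homeobox gene of limb mesenchyme, had 217, 172 and 198 CPM in HH27 libraries, against 186, 195 and 262 CPM in HH24 libraries. Of 17 tested genes of a distal limb mesenchyme list, none was called higher and 4 were called lower (SALL1, SALL3, SALL4 and LHX9, below). TWIST1, a mesenchymal helix-loop-helix factor, and LHX2, which mediates the response to the ridge, were higher by less than the fold limit. TWIST1 had a log2 fold change of 0.90 ± 0.13 (SE, adjusted p = 0.0128), and 0.86 (adjusted p = 0.0224) without HH24 replicate 2. LHX2 had a log2 fold change of 0.47 ± 0.08 (SE, adjusted p = 0.0271), and 0.45 (adjusted p = 0.0571) without HH24 replicate 2. Markers of other cell types were present as well. Ectoderm and ridge genes summed to 1037, 1143 and 1171 CPM in HH27 libraries, against 1012, 1115 and 865 CPM in HH24 libraries, and none of 14 tested was called. At an unadjusted p under 0.05, which 7.22% of all genes passed as higher and 8.13% as lower, 3 were higher and 0 lower. EPCAM had 86.2, 98.1 and 105 CPM in HH27 libraries, against 86.7, 101 and 84.1 CPM in HH24 libraries, and FGF8, which marks the ridge, had 15.3, 8.74 and 12.5 CPM in HH27 libraries, against 15, 0 and 16.6 CPM in HH24 libraries. The epithelial cadherin CDH1 had a log2 fold change of 0.14. Endothelial genes summed to 439.9 to 447 CPM in HH27 and 483 to 561 CPM in HH24, with none of 12 called (1 higher and 2 lower at an unadjusted p under 0.05), and KDR, CDH5, PECAM1 and TEK had log2 fold changes of 0.08, -0.15, 2.85 and 0.54. Myogenic genes were near 0, at 3.45 to 6.23 CPM in HH27 and 0 to 4.89 CPM in HH24 over 13 matched genes, and PAX3, PAX7, MYF5 and MYOD1 had 3 reads or fewer in any library. Red cell genes differed most. They summed to 665, 1850 and 2481 CPM in HH27 libraries, against 4459, 4296 and 5215 CPM in HH24 libraries, with 8 of 9 lower, none called (7 lower at an unadjusted p under 0.05), and a median log2 fold change of -1.74, or -1.70 without HH24 replicate 2. The globin genes HBZ, HBBR, HBAD and HBBA had log2 fold changes of -1.90, -1.99, -1.74 and 0.53. In such pooled tissue, fewer cells of a type and less RNA per cell cannot be told apart, and the part of blood content in the results below was not tested.

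Of 9062 genes tested, 97 were called at an adjusted p under 0.05 and a change of over 2-fold (log2 fold change over 1 in either direction), which is 1.07%. They were 42 higher in HH27 (0.463%) and 55 lower (0.607%). Counts of called list members, above and below, are to be read beside these shares. The lists were written with earlier results of these data known. A list share above that of all genes can follow from this and is no separate support. Without HH24 replicate 2, 63 of 9384 genes were called (0.671%), 21 higher (0.224%) and 42 lower (0.448%). Of these 63, 60 were among the 97 and 3 were not. All 97 kept their direction, including the 37 that lost the call. This fit reuses all the other libraries of the main fit, so kept directions are no separate support. Over all genes tested the libraries of both stages did not overlap for 23.6%, and 94 of the 97 were among them. Called in each of the 6 fits that left out 1 HH27 or HH24 library were 13 genes, higher SAMD12, CCND1 and BSG and lower RFTN1, HOXA10-AS, SALL4, SALL1, PARP16, EFCC1, SALL3, GBX2, IGDCC3 and HGF. Of the 97, 79 were called also by both edgeR's quasi-likelihood test and DESeq2. The median log2 fold change of all genes was 0.03, or 0.01 without HH24 replicate 2. Unless edgeR is named, every adjusted p of a gene comes from limma on voom values with Benjamini-Hochberg adjustment over all genes.

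**Figure D1:**
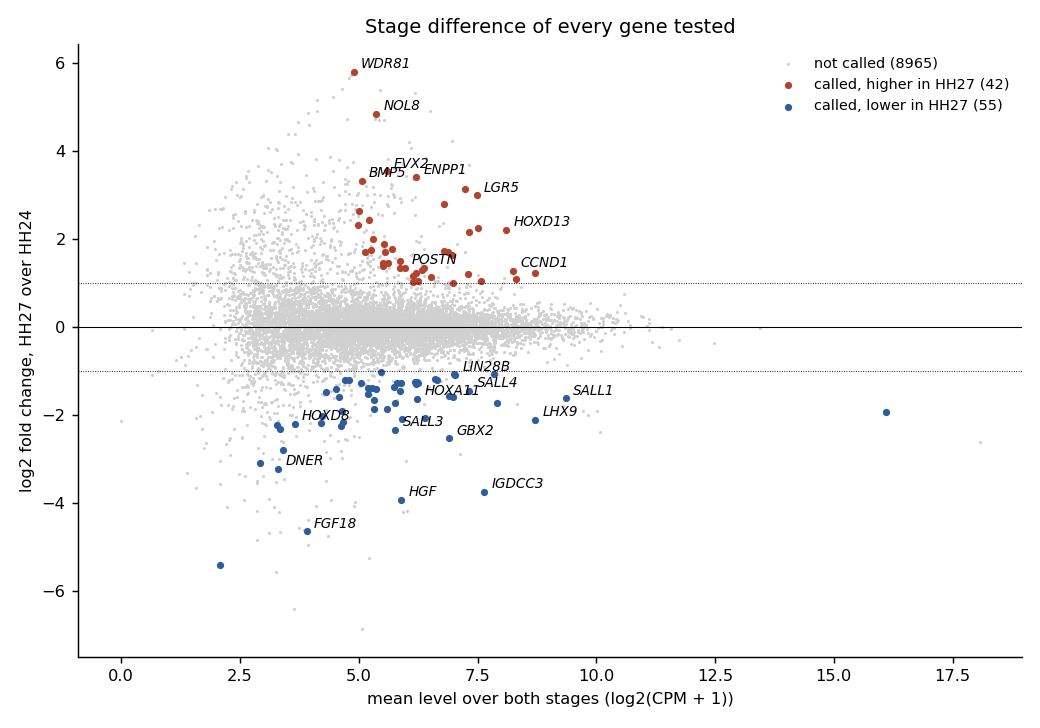
Log2 fold change of HH27 over HH24 against the mean level of both stages (log2(CPM + 1)), 1 point for each of 9062 genes. The 42 called genes that were higher in HH27 are red, the 55 that were lower are blue, uncalled genes are grey, and dotted lines mark 2-fold. Called genes spread over the whole range of levels, and many uncalled low genes lie as far from 0 as called ones.

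**Figure D2:**
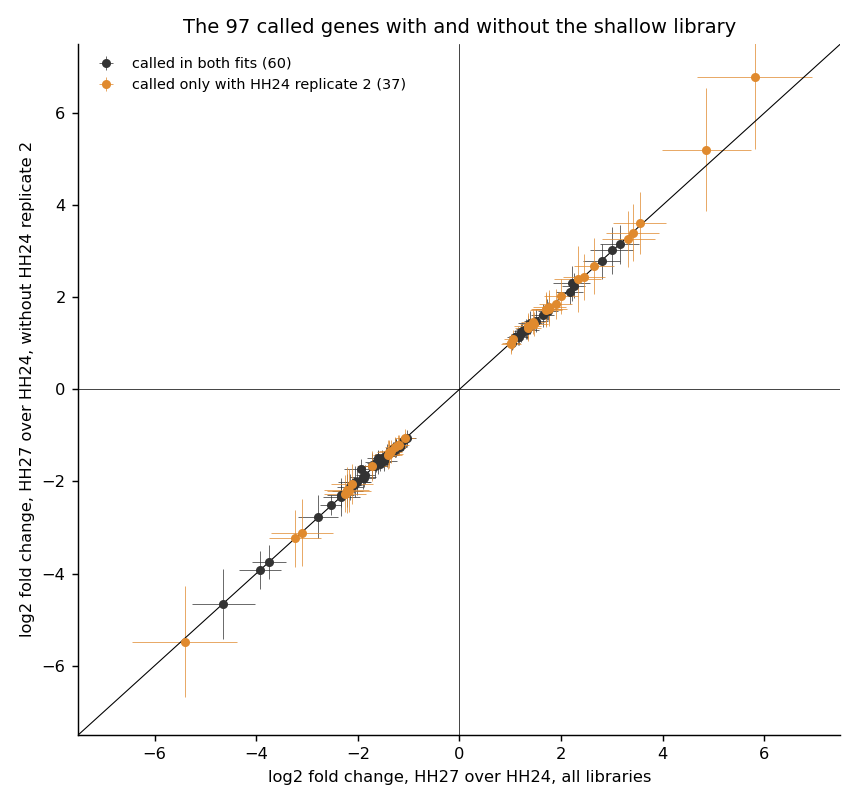
The 97 called genes, with the log2 fold change of HH27 over HH24 from all libraries on the x axis and without HH24 replicate 2 on the y axis, bars showing the standard error (SE). Black points (60) were called in both fits and orange points (37) only with the shallow library. The points lie along the line of equality, with wider bars on the y axis for most orange points. Both fits share all libraries other than the shallow one.

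The HoxD cluster, which on chicken chromosome 7 runs from HOXD1 through HOXD13 to EVX2, changed in opposite directions along its length. HOXD13 and EVX2, at the autopod end, rose in HH27, and HOXD8, in the middle of the cluster, fell. HOXD13, which patterns the digits, had 391, 422 and 439 CPM in HH27 libraries, against 146, 195 and 50.9 CPM in HH24 libraries. The HH24 libraries differed among themselves by over 3-fold, with replicate 3 the lowest, and all of them were below all HH27 libraries. The log2 fold change was 2.21 ± 0.36 (SE, adjusted p = 0.0221), and 2.30 (adjusted p = 0.0439) without HH24 replicate 2, and edgeR did not call it (adjusted p = 0.0628). EVX2, a homeobox gene next to HOXD13 that shares its limb enhancers in the mouse, had 87.4, 76.7 and 84.4 CPM in HH27 libraries, against 15, 15.6 and 2.93 CPM in HH24 libraries. Its log2 fold change was 3.54 ± 0.52 (SE, adjusted p = 0.0147), and 3.61 (adjusted p = 0.064) without HH24 replicate 2, where it was no longer called. LNPK, the next gene, encodes a protein of the endoplasmic reticulum and was singled out here after its values were seen. It had 180.5, 169 and 175 CPM in HH27 libraries, against 49.2, 70.2 and 54.8 CPM in HH24 libraries. HH27 over HH24 gave a log2 fold change of 1.72 ± 0.21 (SE, adjusted p = 0.00624), and 1.74 (adjusted p = 0.0207) without HH24 replicate 2.

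From HOXD8 to EVX2 the fold changes increased with gene order, while HOXD3 and HOXD4, further from the autopod end, were lower by less than HOXD8. HOXD3 had 7.67 ± 5.28 CPM in HH27 and 15.1 ± 8.27 CPM in HH24 (SD), HOXD4 had 4.67 ± 1.14 CPM in HH27 and 18.9 ± 10.7 CPM in HH24 (SD), and neither was called. HOXD8 had 3.83, 3.88 and 3.64 CPM in HH27 libraries, against 15, 23.4 and 19.6 CPM in HH24 libraries. The fit gave a log2 fold change of -2.20 ± 0.31 (SE, adjusted p = 0.0129), and -2.20 (adjusted p = 0.0411) without HH24 replicate 2. HOXD11, a forearm gene that is also expressed in the autopod, had 93.5, 90.3 and 76.4 CPM in HH27 libraries, against 87.7, 140.3 and 72.4 CPM in HH24 libraries, with a log2 fold change of 0.04. HOXD12 had 173, 221 and 195 CPM in HH27 libraries, against 104, 125 and 97.8 CPM in HH24 libraries. All its HH27 libraries were above all its HH24 libraries, log2 fold change 0.90 ± 0.15 (SE), adjusted p = 0.0225, and 0.92, adjusted p = 0.0536, without HH24 replicate 2, just under the fold limit. Outside the cluster the flanking genes MTX2, ATP5G3 and ATF2, also picked after their values were seen, had log2 fold changes of -0.12, 0.52 and 0.10, and none was called. HOXD1, HOXD9 and HOXD10 matched no transcript and were not analysed here.

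**Figure D3:**
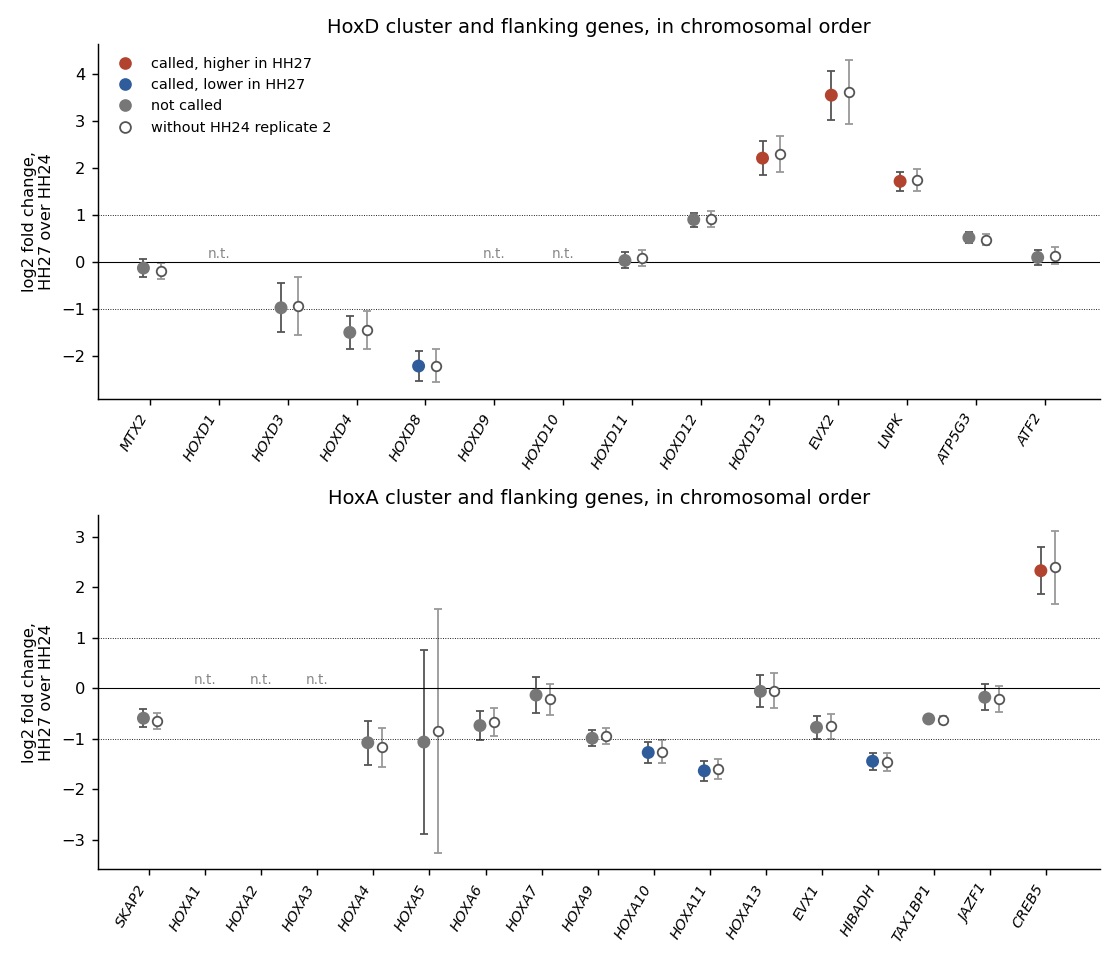
Log2 fold change of HH27 over HH24 with its SE (bars) for the genes of the HoxD (top) and HoxA (bottom) clusters and their flanks, in chromosomal order along the x axis with equal spacing. Filled points come from all libraries (red called higher, blue called lower, grey not called), open points leave out HH24 replicate 2, and n.t. marks genes not tested. The HoxD values pass from -2.20 at HOXD8 to 3.54 at EVX2, while no Hox or Evx gene of the HoxA cluster lies above 0 and the flanking CREB5 does.

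In the HoxA cluster on chromosome 2, HOXA10 and HOXA11 fell, and HOXA13, at the autopod end, was not called (log2 fold change -0.06). HOXA11, which patterns the forearm, had 37.2, 35 and 27 CPM in HH27 libraries, against 83.5, 156 and 107 CPM in HH24 libraries. The highest HH27 library was below the lowest HH24 library. On the log2 scale the change was -1.63 ± 0.19 (SE, adjusted p = 0.00624), and -1.59 (adjusted p = 0.014) without HH24 replicate 2. HOXA10 had 20.3, 19.4 and 15.1 CPM in HH27 libraries, against 46, 54.6 and 37.2 CPM in HH24 libraries. The estimated log2 fold change was -1.27 ± 0.20 (SE, adjusted p = 0.0204), and -1.25 (adjusted p = 0.0536) without HH24 replicate 2, above the limit for a call. HOXA10-AS, a transcript from the other strand of the same locus that was named after its values were seen, fell as well (log2 fold change -1.30 ± 0.14 (SE), adjusted p = 0.00483, and -1.29, adjusted p = 0.0138, without HH24 replicate 2). Whether strand was used in the counting is not given in the sources used here, so reads of HOXA10 and HOXA10-AS cannot be told apart. HOXA9 had 65.9, 43.7 and 60 CPM in HH27 libraries, against 118, 164 and 109 CPM in HH24 libraries, and its log2 fold change of -0.99 (adjusted p = 0.0212, and 0.0477 without HH24 replicate 2) stayed just under the fold limit.

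HOXA13, the autopod member, had 28.4, 22.3 and 34 CPM in HH27 libraries, against 42.8, 39 and 22.5 CPM in HH24 libraries. The libraries of the stages overlapped, and the log2 fold change was -0.06 ± 0.32 (SE, adjusted p = 0.957). EVX1, on its far side, had 15.7 ± 1.15 CPM in HH27 and 31.2 ± 8.89 CPM in HH24 (SD) and was not called. Beyond EVX1, HIBADH, a mitochondrial enzyme of valine breakdown, fell (log2 fold change -1.44 ± 0.17 (SE), adjusted p = 0.00624, and -1.45, adjusted p = 0.016, without HH24 replicate 2). CREB5, a bZIP transcription factor a few genes further on, was called higher with all libraries by limma, lost the call without HH24 replicate 2 at a similar fold change (log2 fold change 2.33 ± 0.46 (SE), adjusted p = 0.047, and 2.40, adjusted p = 0.207, without HH24 replicate 2), and was not called by edgeR (adjusted p = 0.0592). Both were named after their values were seen. Over the lists, 2 of 6 tested autopod Hox and Evx genes were called higher and none lower, with a median log2 fold change of 1.16 (1.21 without HH24 replicate 2). Of 9 tested Hox genes of paralog groups 5 to 11, none was called higher and 3 lower, with a median of -0.99 (-0.76 without HH24 replicate 2). Over all genes 0.463% were called higher and 0.607% lower.

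Other regulators of the early bud were called in both directions. Among 32 tested members of a list of limb transcription factors, 15 were higher and 17 lower, with a median of -0.16, and 2 were called higher and 6 lower, or 2 and 5 without HH24 replicate 2. All 3 tested Sall genes fell. They encode zinc finger factors, of which SALL4 acts with Fgf signalling in limb outgrowth and SALL1 is mutated in a human syndrome with limb defects. SALL1 had 379.8, 239.9 and 300.3 CPM in HH27 libraries, against 923, 1208 and 895 CPM in HH24 libraries. The log2 ratio of HH27 over HH24 was -1.61 ± 0.15 (SE, adjusted p = 0.00469), and -1.55 (adjusted p = 0.00753) without HH24 replicate 2. Within each stage the libraries of SALL4 lay closer together. It had 90.1, 71.9 and 91.4 CPM in HH27 libraries, against 260.0, 226 and 219 CPM in HH24 libraries. In the fit its log2 fold change was -1.45 ± 0.12 (SE, adjusted p = 0.00246), and -1.45 (adjusted p = 0.00675) without HH24 replicate 2. For SALL3 the HH27 libraries varied more. SALL3 had 21.1, 7.77 and 15.8 CPM in HH27 libraries, against 88.8, 117 and 70.4 CPM in HH24 libraries. Its change on the log2 scale was -2.34 ± 0.26 (SE, adjusted p = 0.00618), and -2.29 (adjusted p = 0.0138) without HH24 replicate 2. For each of them every HH27 library was below every HH24 library.

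LHX9, a LIM homeobox gene that acts with LHX2 in the distal mesenchyme, had 156, 56.3 and 254 CPM in HH27 libraries, against 532, 686 and 827 CPM in HH24 libraries. The HH27 libraries differed among themselves by over 4-fold, with replicate 2 the lowest. The stage difference in log2 was -2.11 ± 0.41 (SE, adjusted p = 0.0449), and -2.06 (adjusted p = 0.0872) without HH24 replicate 2, so it was called only with the shallow library, and edgeR did not call it (adjusted p = 0.0608). GBX2, a homeobox gene best known from the brain, had 36, 30.1 and 30.4 CPM in HH27 libraries, against 167, 249 and 199.5 CPM in HH24 libraries. The fitted log2 fold change was -2.53 ± 0.21 (SE, adjusted p = 0.00246), and -2.50 (adjusted p = 0.0065) without HH24 replicate 2. LIN28B, which is an RNA-binding protein that blocks maturation of let-7 microRNAs and times development in worms, had 89.7, 82.5 and 82.1 CPM in HH27 libraries, against 165, 164 and 198 CPM in HH24 libraries. As a log2 fold change this was -1.08 ± 0.11 (SE, adjusted p = 0.00469), and -1.10 (adjusted p = 0.0117) without HH24 replicate 2. In the other direction, TFAP2B, an AP-2 factor, had 233, 314 and 256 CPM in HH27 libraries, against 42.8, 31.2 and 19.6 CPM in HH24 libraries. The log2 fold change was 3.15 ± 0.38 (SE, adjusted p = 0.00662), and 3.15 (adjusted p = 0.0191) without HH24 replicate 2. Its relatives TFAP2A and TFAP2C had log2 fold changes of 0.56 and 0.65 and were not called. TBX5, which starts the wing bud, had 179 ± 11.6 CPM in HH27 and 117 ± 62.6 CPM in HH24 (SD), and LMX1B, which sets dorsal identity, 78.6 ± 15.2 CPM in HH27 and 141 ± 34 CPM in HH24 (SD). TBX3, of the limb margins, had a log2 fold change of 0.75 (adjusted p = 0.615).

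Of the Fgf signalling genes, 1 ligand fell, and 1 gene listed as a target rose. FGF18, a ligand of bone and cartilage growth, was nearly absent in HH27, with 0.383, 1.94 and 1.30 CPM in HH27 libraries, against 33.2, 23.4 and 23.5 CPM in HH24 libraries. Its log2 fold change was -4.65 ± 0.62 (SE, adjusted p = 0.0109), and -4.65 (adjusted p = 0.0418) without HH24 replicate 2. In reads this was 1, 2 and 5 in HH27, against 31, 3 and 24 in HH24. It was the 1 called gene among 12 tested Fgf ligands and receptors, against 1.07% of all genes. FGF10, the mesenchymal ligand that maintains the ridge, had 30.3 ± 6.12 CPM in HH27 and 53.5 ± 21.4 CPM in HH24 (SD), and the receptor FGFR1 had 42.1 ± 6.41 CPM in HH27 and 65 ± 24.1 CPM in HH24 (SD). Among 15 tested feedback genes and targets 1 was called, CCND1, which rose and is treated with the cell cycle. In wing explants the study found CCND1 unaffected when Fgf signalling was attenuated. Of the 15, 10 were lower, and the median was -0.28 (-0.27 without HH24 replicate 2). The inhibitors SPRY2, SPRY4 and DUSP6 had log2 fold changes of -0.41, -1.17 and -0.28, while SPRY1 had 1.15, and none passed the test. The ETS factors ETV4 and ETV5 had 2.06 and -0.26. IL17RD, a membrane inhibitor of Fgf receptors, passed the adjusted p but not the fold limit, with 511, 433 and 478 CPM in HH27 libraries, against 845, 779.6 and 928 CPM in HH24 libraries, log2 fold change -0.86 ± 0.09 (SE), adjusted p = 0.00469, and -0.89, adjusted p = 0.00828, without HH24 replicate 2.

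The called Bmp genes were all higher in HH27, but the lists as a whole were not. The ligands and antagonists were balanced, with 7 higher and 7 lower and a median of -0.02 (0.07 without HH24 replicate 2). Of the receptors and targets, 11 were higher and 5 lower. Of 14 tested ligands and antagonists 2 were called higher, as were 2 of 16 tested receptors and targets. None of the 30 was called lower. Over all genes 0.463% were called higher and 0.607% lower. Without HH24 replicate 2 the higher calls in these lists were 1 and 2. BMP5 had 58.2, 68.9 and 56.4 CPM in HH27 libraries, against 5.35, 0 and 5.87 CPM in HH24 libraries. HH27 over HH24 gave a log2 fold change of 3.33 ± 0.52 (SE, adjusted p = 0.0196), and 3.27 (adjusted p = 0.0603) without HH24 replicate 2, where the call was lost. BMP7, a ligand of the ridge and the mesenchyme, had 402, 428 and 386 CPM in HH27 libraries, against 213, 304 and 154 CPM in HH24 libraries. The fit gave a log2 fold change of 1.09 ± 0.15 (SE, adjusted p = 0.0128), and 1.14 (adjusted p = 0.0143) without HH24 replicate 2. Neither edgeR nor DESeq2 called BMP7, since their log2 fold changes of 0.996 and 0.971 were just under the fold limit. BMP4 had a log2 fold change of -0.40 (adjusted p = 0.434), and BMP2 matched no transcript. Of the antagonists, GREM1, which links Shh to the ridge, was low in both stages (4.46 ± 1.47 CPM in HH27 and 6.11 ± 5.33 CPM in HH24 (SD)) and was not called.

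Among the targets, BAMBI, a pseudoreceptor that dampens Bmp and Tgf-beta signals, had 173, 238 and 163 CPM in HH27 libraries, against 57.8, 46.8 and 58.7 CPM in HH24 libraries. On the log2 scale the change was 1.64 ± 0.23 (SE, adjusted p = 0.0128), and 1.61 (adjusted p = 0.0377) without HH24 replicate 2. MSX2, a homeobox gene induced by Bmp, had 110.0, 129 and 132 CPM in HH27 libraries, against 56.7, 15.6 and 45 CPM in HH24 libraries. The estimated log2 fold change was 1.34 ± 0.22 (SE, adjusted p = 0.0211), and 1.28 (adjusted p = 0.0323) without HH24 replicate 2. MSX1, its relative, had 79.1 ± 13.8 CPM in HH27 and 111 ± 28.7 CPM in HH24 (SD) and was not called. ID2, an inhibitor of helix-loop-helix factors, was higher by less than the fold limit (log2 fold change 0.90 ± 0.18 (SE), adjusted p = 0.0489, and 0.88, adjusted p = 0.112, without HH24 replicate 2), while ID1 had a log2 fold change of 0.19 and SMAD6, the inhibitory Smad, 0.80, neither past the test. The median of the receptors and targets was 0.31 (0.28 without HH24 replicate 2).

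Of the Shh pathway genes, a co-receptor and a secreted protein fell and no target was called. SHH itself had 0 reads in all 6 libraries, which allows up to 3 reads in each. BOC, a co-receptor for Shh, had 70.9, 44.7 and 70.1 CPM in HH27 libraries, against 213, 125 and 187 CPM in HH24 libraries. The log2 ratio of HH27 over HH24 was -1.57 ± 0.18 (SE, adjusted p = 0.00624), and -1.61 (adjusted p = 0.0107) without HH24 replicate 2. SCUBE1, of a family of secreted proteins that help release Hedgehog ligands, had 121, 53.4 and 138 CPM in HH27 libraries, against 331, 421 and 373 CPM in HH24 libraries. HH27 replicate 2 was the lowest library, and no HH27 library reached the HH24 range. In the fit its log2 fold change was -1.72 ± 0.27 (SE, adjusted p = 0.0196), and -1.67 (adjusted p = 0.044) without HH24 replicate 2. The target genes PTCH1 and GLI1 had log2 fold changes of 0.21 and 0.43, and the posterior factor HAND2 had -0.08 and GLI3 -0.03. Both called genes were lower, out of 11 tested, against 0.607% of all genes called lower.

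Of the Wnt genes, 2 were called higher and none lower, in both fits. LGR5, a receptor for R-spondins that strengthens Wnt signals, had 266, 304 and 364 CPM in HH27 libraries, against 47.1, 54.6 and 31.3 CPM in HH24 libraries. Its change on the log2 scale was 3.00 ± 0.42 (SE, adjusted p = 0.0128), and 3.03 (adjusted p = 0.0454) without HH24 replicate 2. SFRP1, a secreted Wnt-binding protein, had 93.9, 98.1 and 111 CPM in HH27 libraries, against 43.9, 23.4 and 47.9 CPM in HH24 libraries. The stage difference in log2 was 1.17 ± 0.18 (SE, adjusted p = 0.0185), and 1.14 (adjusted p = 0.0375) without HH24 replicate 2. They were the called genes among 22 ligands and receptors and among 18 modulators and targets, against 1.07% of all genes. WNT5A, the ligand of limb elongation, had 50.6 ± 3.57 CPM in HH27 and 69.7 ± 54.4 CPM in HH24 (SD), and WNT11 had a log2 fold change of 0.09. The targets AXIN2 and LEF1 had 0.33 and 1.32, and SFRP2 had 0.58, none past the test.

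In each of the next lists 1 gene was called, against 1.07% of all genes. Of the retinoic acid genes, 1 of 16 was called. STRA6, which takes up retinol into cells, had 10.7, 11.7 and 9.09 CPM in HH27 libraries, against 26.7, 46.8 and 32.3 CPM in HH24 libraries. The fitted log2 fold change was -1.60 ± 0.25 (SE, adjusted p = 0.0196), and -1.58 (adjusted p = 0.0471) without HH24 replicate 2. CYP26B1, which breaks down retinoic acid at the tip of the limb, had 141, 88.4 and 135 CPM in HH27 libraries, against 269, 405 and 209 CPM in HH24 libraries. It did not pass the test (log2 fold change -0.99 ± 0.21 (SE), adjusted p = 0.0596, and -0.90, adjusted p = 0.102, without HH24 replicate 2). The proximal factor MEIS1 had 38.5 ± 5.76 CPM in HH27 and 38.3 ± 13.7 CPM in HH24 (SD), and MEIS2 stayed below the filter with at most 1 read. The receptor gene RARB had a log2 fold change of 0.85. In the Notch list 1 of 12 genes was called, DNER, a transmembrane ligand best known from neurons, with 1.53, 0.971 and 1.82 CPM in HH27 libraries, against 12.8, 15.6 and 20.5 CPM in HH24 libraries. As a log2 fold change this was -3.23 ± 0.51 (SE, adjusted p = 0.0204), and -3.23 (adjusted p = 0.0671) without HH24 replicate 2. JAG1 and HEY1 had 0.49 and -0.12. In the Tgf-beta list 1 of 14 was called, SKI, a co-repressor of Smad proteins, with 20.7, 40.8 and 15.6 CPM in HH27 libraries, against 71.7, 117 and 54.8 CPM in HH24 libraries. The log2 fold change was -1.72 ± 0.30 (SE, adjusted p = 0.0271), and -1.66 (adjusted p = 0.0716) without HH24 replicate 2. Neither DNER nor SKI was called without HH24 replicate 2, and edgeR did not call SKI (adjusted p = 0.104). TGFB2 and TGFBR2 had log2 fold changes of 1.03 and 0.50.

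**Figure D4:**
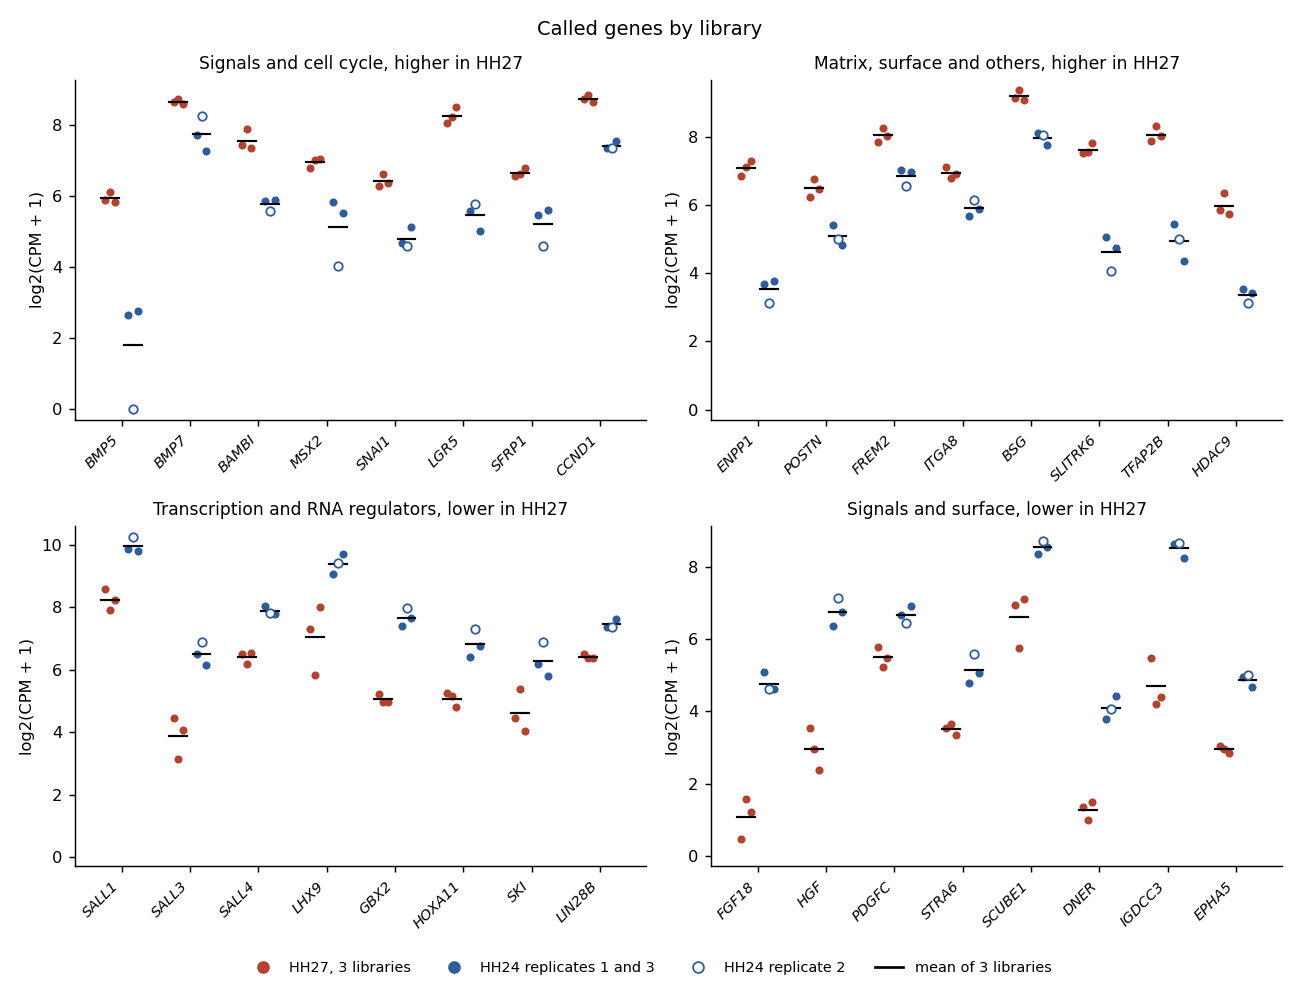
Levels of 32 called genes in each library, as log2(CPM + 1) on the y axis, with HH27 libraries (red) left of HH24 libraries (blue) for each gene and black lines for the mean of 3 libraries. The open circle is HH24 replicate 2. For all 32 genes the libraries of both stages lie apart, and BMP5 and MSX2 show the shallow library well below the other HH24 libraries.

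Secreted factors and surface molecules held several of the steepest falls. HGF, a ligand that draws muscle precursors into the limb, had 10.7, 6.80 and 4.16 CPM in HH27 libraries, against 81.3, 140.3 and 108 CPM in HH24 libraries. The highest HH27 library was far below the lowest HH24 library. Its log2 fold change was -3.92 ± 0.41 (SE, adjusted p = 0.00469), and -3.92 (adjusted p = 0.0117) without HH24 replicate 2. PDGFC, a platelet-derived growth factor, had 53.6, 36.9 and 43.4 CPM in HH27 libraries, against 102, 85.8 and 119 CPM in HH24 libraries. HH27 over HH24 gave a log2 fold change of -1.25 ± 0.19 (SE, adjusted p = 0.0148), and -1.28 (adjusted p = 0.0364) without HH24 replicate 2. In the same list of 26 tested genes 1 was called higher, ENPP1, which is not a growth factor but an enzyme that makes pyrophosphate and so restrains mineralisation. It had 113, 137 and 155 CPM in HH27 libraries, against 11.8, 7.80 and 12.7 CPM in HH24 libraries. The fit gave a log2 fold change of 3.41 ± 0.52 (SE, adjusted p = 0.0174), and 3.40 (adjusted p = 0.0557) without HH24 replicate 2. The receptor gene PDGFRA had 137 ± 26.7 CPM in HH27 and 104 ± 3.28 CPM in HH24 (SD), and CXCL12, a chemokine, 4.72 ± 1.84 CPM in HH27 and 16.4 ± 6.81 CPM in HH24 (SD). Neither was called.

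Among 33 adhesion genes 1 was called higher and 3 lower, in both fits. Over all genes 0.463% were called higher and 0.607% lower, or 0.224% and 0.448% without HH24 replicate 2. IGDCC3 and IGDCC4 are neighbouring genes for transmembrane proteins of the immunoglobulin superfamily. IGDCC3 had 43.7, 17.5 and 20 CPM in HH27 libraries, against 399, 405 and 304 CPM in HH24 libraries. On the log2 scale the change was -3.75 ± 0.34 (SE, adjusted p = 0.0043), and -3.74 (adjusted p = 0.00828) without HH24 replicate 2. No HH27 library came near the HH24 range. IGDCC4 had 26.4, 21.4 and 19.7 CPM in HH27 libraries, against 90.9, 46.8 and 77.3 CPM in HH24 libraries. The estimated log2 fold change was -1.87 ± 0.21 (SE, adjusted p = 0.00618), and -1.92 (adjusted p = 0.0117) without HH24 replicate 2. Integrin alpha chains moved in both directions, since ITGA4, which pairs with beta 1 to bind fibronectin and VCAM1, fell and ITGA8, a receptor for nephronectin, rose. ITGA4 had 41.4, 38.8 and 43.1 CPM in HH27 libraries, against 86.7, 109 and 109.5 CPM in HH24 libraries. The log2 ratio of HH27 over HH24 was -1.24 ± 0.15 (SE, adjusted p = 0.00624), and -1.23 (adjusted p = 0.0175) without HH24 replicate 2. The stages did not overlap for either integrin. ITGA8 had 137, 109 and 118 CPM in HH27 libraries, against 50.3, 70.2 and 57.7 CPM in HH24 libraries. In the fit its log2 fold change was 1.15 ± 0.17 (SE, adjusted p = 0.0147), and 1.17 (adjusted p = 0.0439) without HH24 replicate 2. The cadherins CDH2 and CDH11 had log2 fold changes of 0.88 and 0.23 and were not called. NCAM1 had 0.766, 40.8 and 26 CPM in HH27 libraries, against 0, 93.6 and 0 CPM in HH24 libraries, which gave a log2 fold change of 3.03 with an SE of 4.48.

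Of 31 guidance genes 1 was called, against 1.07% of all genes. EPHA5, an ephrin receptor, had 7.28, 6.80 and 6.23 CPM in HH27 libraries, against 29.96, 31.2 and 24.5 CPM in HH24 libraries. Its change on the log2 scale was -2.02 ± 0.26 (SE, adjusted p = 0.00836), and -2.01 (adjusted p = 0.0232) without HH24 replicate 2. EPHA4, a receptor that guides axons in the limb, had 168, 174 and 149.6 CPM in HH27 libraries, against 308, 304 and 265 CPM in HH24 libraries, lower by less than the fold limit (log2 fold change -0.84 ± 0.10 (SE), adjusted p = 0.00692, and -0.83, adjusted p = 0.019, without HH24 replicate 2). Its possible partner EFNB1 was higher by less than the fold limit, with 284, 290.4 and 289 CPM in HH27 libraries, against 179.8, 210.5 and 177 CPM in HH24 libraries (log2 fold change 0.67 ± 0.08 (SE), adjusted p = 0.00759, and 0.68, adjusted p = 0.0157, without HH24 replicate 2). For both genes every HH27 library lay apart from every HH24 library. EPHA7, which sorts cells in the autopod, had few reads and was not called (8.25 ± 3.79 CPM in HH27 and 1.30 ± 2.26 CPM in HH24 (SD)). EPHA3 varied between libraries, with 212, 132 and 519.7 CPM in HH27 libraries, against 34.2, 46.8 and 12.7 CPM in HH24 libraries, and was not called. SEMA3A, a repellent for axons, had a log2 fold change of -0.22.

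Most connective tissue matrix genes differed by less than the fold limit. In the connective tissue list 27 of 38 tested genes were higher and 16 did not overlap in that direction, against 2 in the other (13.7% and 9.94% of all genes), with a median of 0.31 (0.33 without HH24 replicate 2). The 1 call was POSTN, a matrix protein of connective tissue and tendon, with 74.3, 107 and 88.1 CPM in HH27 libraries, against 41.7, 31.2 and 27.4 CPM in HH24 libraries. The stage difference in log2 was 1.34 ± 0.25 (SE, adjusted p = 0.0387), and 1.34 (adjusted p = 0.0836) without HH24 replicate 2, so that none of the list was called in that fit. The fibrillar collagen COL3A1 had 142, 169.9 and 147 CPM in HH27 libraries, against 90.9, 46.8 and 65.5 CPM in HH24 libraries, just under the fold limit (log2 fold change 0.99 ± 0.17 (SE), adjusted p = 0.0271, and 0.95, adjusted p = 0.0571, without HH24 replicate 2). COL12A1 and COL26A1 passed the adjusted p as well, with log2 fold changes of 0.96 and 0.77. COL6A1 and COL1A2 had 2.43 and 0.50 and did not pass. The tendon factor SCX had 8.24 ± 3.05 CPM in HH27 and 17.4 ± 5.46 CPM in HH24 (SD) and was not called, and OSR2 was near 0 in both stages.

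Of 15 basement membrane genes, 1 was called higher and 2 lower, the same counts in both fits. Over all genes 0.463% were called higher and 0.607% lower. FREM2 and FRAS1 encode partners in 1 protein complex that anchors the ectoderm to the mesenchyme, and they moved apart. FREM2 had 229.9, 306 and 256 CPM in HH27 libraries, against 129, 93.6 and 124 CPM in HH24 libraries. The fitted log2 fold change was 1.04 ± 0.15 (SE, adjusted p = 0.0128), and 1.00 (adjusted p = 0.0364) without HH24 replicate 2. FRAS1 stood the other way round. It had 149.8, 124 and 172 CPM in HH27 libraries, against 329.5, 288 and 318 CPM in HH24 libraries. As a log2 fold change this was -1.07 ± 0.12 (SE, adjusted p = 0.00618), and -1.08 (adjusted p = 0.0138) without HH24 replicate 2. For both, every HH27 library lay outside the HH24 range. LAMA4, a laminin chain of vessels, fell, with 29.5, 27.2 and 34.5 CPM in HH27 libraries, against 62.1, 39 and 68.5 CPM in HH24 libraries. The log2 fold change was -1.03 ± 0.18 (SE, adjusted p = 0.0284), and -1.06 (adjusted p = 0.0477) without HH24 replicate 2, and edgeR did not call it (adjusted p = 0.059). COL4A1 had 23.6 ± 3.72 CPM in HH27 and 17 ± 17.1 CPM in HH24 (SD) and was not called.

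No cartilage gene was called by limma among 15 tested, nor by edgeR or DESeq2. At an unadjusted p under 0.05, 2 were higher and 1 lower, against 7.22% and 8.13% of all genes. SOX9, which starts cartilage, had 12.6, 11.7 and 20 CPM in HH27 libraries, against 6.42, 0 and 3.91 CPM in HH24 libraries. All HH27 libraries were above all HH24 libraries, but the gene did not pass the test (log2 fold change 1.60 ± 0.67 (SE), adjusted p = 0.306, and 1.56, adjusted p = 0.454, without HH24 replicate 2). COL2A1, the collagen of cartilage, had 19.97 ± 2.66 CPM in HH27 and 31.9 ± 12.9 CPM in HH24 (SD), and SOX5 had a log2 fold change of -0.47. ACAN and RUNX2 were below the filter, with at most 26 and 6 reads in a library. CYTL1, a secreted cytokine-like protein named here after its values were seen, was higher by less than the fold limit (log2 fold change 0.85 ± 0.15 (SE), adjusted p = 0.0304, and 0.85, adjusted p = 0.0766, without HH24 replicate 2), and TRPS1, a repressor of chondrocyte maturation named likewise, was lower by less than it (log2 fold change -0.75 ± 0.14 (SE), adjusted p = 0.0429, and -0.71, adjusted p = 0.081, without HH24 replicate 2).

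Of the cell cycle genes, 1 cyclin rose, 1 inhibitor fell and no other member was called. CCND1, the cyclin that drives cells out of G1, had 429.6, 459 and 406 CPM in HH27 libraries, against 165, 164 and 188 CPM in HH24 libraries. The libraries within a stage lay close together. Its log2 fold change was 1.28 ± 0.10 (SE, adjusted p = 0.00246), and 1.26 (adjusted p = 0.0065) without HH24 replicate 2, and it was called in each of the 6 fits without 1 library. CDKN1C (p57), an inhibitor of cyclin-dependent kinases, had 14.9, 12.6 and 18.4 CPM in HH27 libraries, against 37.4, 39 and 37.2 CPM in HH24 libraries. HH27 over HH24 gave a log2 fold change of -1.20 ± 0.19 (SE, adjusted p = 0.0211), and -1.20 (adjusted p = 0.0536) without HH24 replicate 2, above the limit for a call. CCND2 and MYCN had log2 fold changes of -0.47 and -0.74 and were not called. MYCN had 0 reads in HH24 replicate 2. No DNA replication gene (51 tested) and no mitosis gene (58 tested) was called in either limma fit, nor by edgeR or DESeq2, with medians of 0.06 and 0.12 (0.04 and 0.11 without HH24 replicate 2). An unadjusted p under 0.05 was passed by 7.22% of all genes as higher and 8.13% as lower. Among replication genes 4 were higher and 1 lower at that limit, and among mitosis genes 13 were higher and 0 lower. Of the members of both lists, PCNA, RRM2, MCM2, MCM5, TOP2A, PLK1 and CDK1 had log2 fold changes of 0.20, 0.11, 0.04, -0.08, 0.24, 0.22 and 0.17.

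The medians of the metabolic and ribosomal lists differed by less than the fold limit. Of 67 ribosomal protein genes 63 were higher in HH27, and 36 did not overlap in that direction and 0 in the other, against 13.7% and 9.94% of all genes. Their median was 0.22 (0.18 without HH24 replicate 2), and their summed level was 48326, 50716 and 48553 CPM in HH27 libraries, against 43721, 35955 and 43678 CPM in HH24 libraries. The summed level was lowest in the shallow HH24 replicate 2. Of 61 nuclear genes of oxidative phosphorylation, 47 were higher, with a median of 0.12 (0.11), and of 25 glycolysis genes 16 were lower, with a median of -0.20 (-0.21). None was called in these 3 lists by limma, edgeR or DESeq2. At an unadjusted p under 0.05, 33 ribosomal genes were higher and 0 lower, 2 oxidative phosphorylation genes were higher and 1 lower, and 2 glycolysis genes were higher and 6 lower. Over all genes 7.22% were higher and 8.13% lower at that limit. The enzymes GAPDH and ENO1 had log2 fold changes of 0.10 and 0.31, LDHA had 1.22 (adjusted p = 0.102), HK2 had -0.37, and the ribosomal proteins RPL3, RPLP0 and RPS6 had 0.21, -0.03 and -0.12. The respiratory chain genes NDUFAB1, NDUFS1, SDHA and UQCRC2 had -0.03, -0.20, 0.27 and 0.09. Of 9 tested immediate early and heat shock genes none was called by limma, edgeR or DESeq2 (1 higher and 1 lower at an unadjusted p under 0.05), with log2 fold changes of 0.72 for JUN and 0.79 for EGR1.

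**Figure D5:**
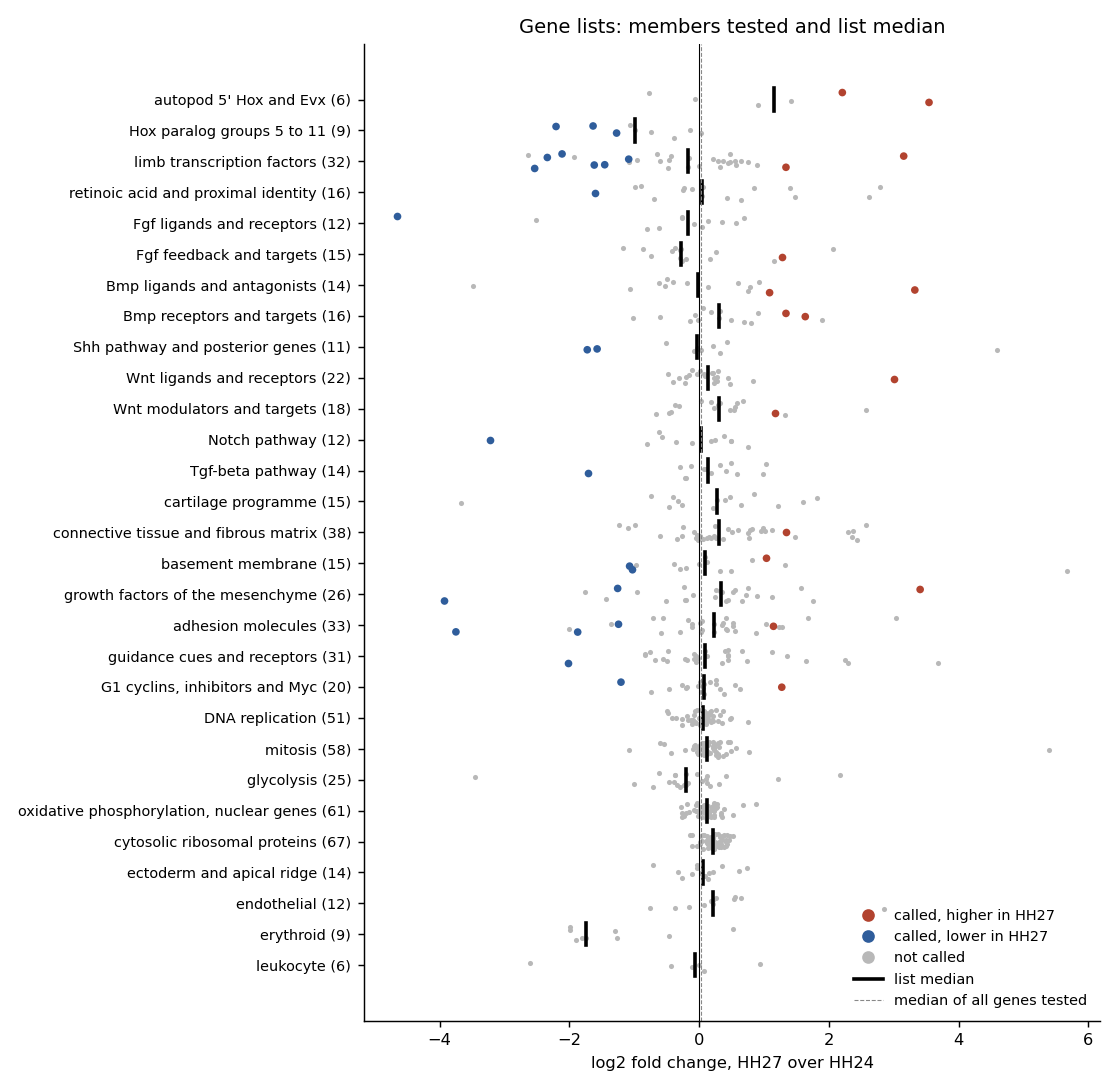
Log2 fold change of HH27 over HH24 (x axis) for the tested members of 29 gene lists (rows, number tested in brackets), with called members red (higher in HH27) or blue (lower), others grey, and black bars for list medians. The autopod Hox and Evx list has the highest median (1.16) and the red cell list the lowest (-1.74). The ribosomal, oxidative phosphorylation and DNA replication lists lie within 1 of 0 throughout.

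Several of the steepest changes fell outside these lists. WDR81, a protein of endosomes, had 55.6, 62.2 and 54.5 CPM in HH27 libraries, against 0, 0 and 0 CPM in HH24 libraries (adjusted p = 0.0429, and 0.114 without HH24 replicate 2). Against a limit of 3 reads over the 3 HH24 libraries together, HH27 was 39.9-fold higher. That limit covers counting error only, and libraries of the same group differed by more than counting error, so the fold is no firm lower bound. NOL8, a nucleolar protein, had 72.8, 76.7 and 70.6 CPM in HH27 libraries, against 0, 15.6 and 5.87 CPM in HH24 libraries. The fit gave a log2 fold change of 4.86 ± 0.87 (SE, adjusted p = 0.0306), and 5.20 (adjusted p = 0.143) without HH24 replicate 2. Both had no call without the shallow library. In the HH24g libraries, grafts of stage HH24, WDR81 had 41.9 and 48.6 CPM and NOL8 had 78.9 and 88.6 CPM. These were much nearer the HH27 than the HH24 levels. The low values thus belonged to the ungrafted HH24 libraries, and their cause was not tested. Other called genes also had HH24g levels near those of HH27. POSTN had 84.4 and 88.9 CPM in HH24g libraries, NPTX1 1.997 and 1.83 CPM, and ARHGEF39 0 and 9.78 CPM. Further called genes stayed near HH24 in them, such as CDKN1C (40.4 and 42.8 CPM) and EVX2 (4.49 and 8.55 CPM). Genes of each kind were not counted, and whether these differences follow stage was not tested. SLITRK6, a transmembrane protein of neurons and the inner ear, had 181, 185 and 222 CPM in HH27 libraries, against 32.1, 15.6 and 25.4 CPM in HH24 libraries. On the log2 scale the change was 2.80 ± 0.37 (SE, adjusted p = 0.00984), and 2.78 (adjusted p = 0.0221) without HH24 replicate 2. HDAC9, a histone deacetylase, had 56.7, 79.6 and 52.5 CPM in HH27 libraries, against 10.7, 7.80 and 9.78 CPM in HH24 libraries. The estimated log2 fold change was 2.45 ± 0.41 (SE, adjusted p = 0.025), and 2.44 (adjusted p = 0.0841) without HH24 replicate 2. FAM46A, which encodes a poly(A) polymerase linked to bone disease in humans, had 45.6, 64.1 and 47.5 CPM in HH27 libraries, against 6.42, 15.6 and 7.82 CPM in HH24 libraries. The log2 ratio of HH27 over HH24 was 2.65 ± 0.40 (SE, adjusted p = 0.0168), and 2.68 (adjusted p = 0.108) without HH24 replicate 2. Neither HDAC9 nor FAM46A was called without HH24 replicate 2.

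Of the steepest falls outside the lists, all were low genes. NPTX1, a secreted pentraxin of synapses, had 1.92, 2.91 and 1.82 CPM in HH27 libraries, against 15, 23.4 and 12.7 CPM in HH24 libraries. In the fit its log2 fold change was -2.79 ± 0.39 (SE, adjusted p = 0.0128), and -2.76 (adjusted p = 0.0454) without HH24 replicate 2. NPY2R, a receptor for neuropeptide Y, had 2.68, 2.91 and 4.16 CPM in HH27 libraries, against 21.4, 7.80 and 15.6 CPM in HH24 libraries. Its change on the log2 scale was -2.33 ± 0.36 (SE, adjusted p = 0.0192), and -2.34 (adjusted p = 0.0477) without HH24 replicate 2. NECAB2, a neuronal calcium-binding protein, had 2.30, 0 and 1.56 CPM in HH27 libraries, against 12.8, 7.80 and 14.7 CPM in HH24 libraries, and ARHGEF39 had 5.75, 10.7 and 9.35 CPM in HH27 libraries, against 39.6, 39 and 37.2 CPM in HH24 libraries. Both lost the call without HH24 replicate 2 (log2 fold change -3.10, adjusted p = 0.0468, and 0.118 without it, for NECAB2 and log2 fold change -2.25, adjusted p = 0.0351, and 0.0554 without it, for ARHGEF39). These 4 genes rest on few reads, HH24 replicate 2 contributed at most 5 reads to any of them, and edgeR called only NPTX1 among them. The steepest called fall was FOXI2 (log2 fold change -5.41, adjusted p = 0.0416), named here after its values were seen. It had 0 reads in each HH27 library, against 8, 0 and 11 reads in HH24 libraries, so the stages overlapped. FOXI2 lost the call without HH24 replicate 2 (adjusted p = 0.0999), and edgeR did not call it (adjusted p = 0.127).

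The next genes were picked after their values, including the spread of their libraries, were seen. Small errors, separate stages and kept calls partly follow from that choice and are no separate support. BSG (basigin), a membrane glycoprotein that carries lactate transporters to the surface, had 562, 653 and 534 CPM in HH27 libraries, against 272, 265 and 215 CPM in HH24 libraries. The stage difference in log2 was 1.22 ± 0.12 (SE, adjusted p = 0.00469), and 1.22 (adjusted p = 0.013) without HH24 replicate 2. SAMD12 had 299.7, 329 and 257 CPM in HH27 libraries, against 78.1, 70.2 and 46 CPM in HH24 libraries. The fitted log2 fold change was 2.25 ± 0.23 (SE, adjusted p = 0.00469), and 2.25 (adjusted p = 0.0138) without HH24 replicate 2. SNAI1, a repressor of E-cadherin and a driver of mesenchymal character, had 78.2, 99.1 and 82.9 CPM in HH27 libraries, against 24.6, 23.4 and 34.2 CPM in HH24 libraries. As a log2 fold change this was 1.51 ± 0.23 (SE, adjusted p = 0.0192), and 1.49 (adjusted p = 0.0425) without HH24 replicate 2. Downward, RFTN1, a protein of lipid rafts, had 47.9, 42.7 and 39.5 CPM in HH27 libraries, against 99.5, 117 and 105 CPM in HH24 libraries. The log2 fold change was -1.27 ± 0.14 (SE, adjusted p = 0.0051), and -1.26 (adjusted p = 0.0138) without HH24 replicate 2. EFCC1 had 23.4, 19.4 and 21 CPM in HH27 libraries, against 90.9, 109 and 89.98 CPM in HH24 libraries. Its log2 fold change was -2.08 ± 0.16 (SE, adjusted p = 0.00246), and -2.07 (adjusted p = 0.0065) without HH24 replicate 2. All 5 kept the call without HH24 replicate 2, and the libraries of the stages did not overlap for any of them.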

How the data were processed

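Gene expression was measured by paired-end RNA sequencing of 8 libraries, of which 6 (HH27 and HH24, 3 each) were compared. The authors deposited 1 table a library, with an estimated count (a read that fits several transcripts is split among them) and a TPM value for every transcript. The deposited TPM values keep no depth and were used in no test. The submitters' processing notes name HISAT2 2.0.2, Salmon, limma and the build galGal4. The strand setting and the transcript release are not given in the sources used here. Per the methods, each replicate was a separate pooled experiment, and 1 HH24 library was left out by the study, which the labels do not identify.

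Of 57399 RefSeq transcripts, 26660 (46.4%) matched a gene symbol in RefSeq's GRCg7b gene table by accession without version. The table served for names, chromosomes and gene order only. Estimated counts were summed over 14612 genes and rounded to whole numbers. Reads without a match (33.8 to 48.1% in HH27, 46.7 to 90.8% in HH24) stayed out of library sizes. Genes were kept by filterByExpr (minimum count 10, minimum total 15) over all 8 libraries, which left 9062. With only the 6 compared libraries the filter left 7988 genes. Of the 55 genes called lower, 50 were among these, so some lower calls were tested only because the HH24g libraries entered the filter. They were scaled by TMM and fitted with limma on voom values, 1 mean per group, over all 8 libraries. Calls needed a Benjamini-Hochberg adjusted p under 0.05 and an absolute log2 fold change over 1, the limits the study used. Counting error alone sets a floor of 3 reads for a count of 0.

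The members and the gene lists were chosen with earlier results of these data known. Named are 10 called genes at each extreme of fold change (with a symbol, a level of 1 CPM or more in 1 stage, and stages that did not overlap), each called list member, each core list member that passed the filter, except a member that is not reported here, the transcripts with the most reads, and others said to be chosen after their values were seen. Alternatives were edgeR, DESeq2, its size factors, other filters, no fold limit, sample quality weights, only the libraries compared, a replicate block, a table without rRNA, mitochondrial and haemoglobin genes, unmatched transcripts as features, and leaving out each library. No pair of libraries of the same group agreed within sampling noise (chi-square per degree of freedom at least 4.63). The fits were tested on simulated data with planted changes, and that test is no support for any result here. Python 3.11.15 (numpy 2.4.6, pandas 2.3.3, matplotlib 3.10.9) and R 4.3.3 were used, R with DESeq2 1.42.0, edgeR 4.0.16 and limma 3.58.1.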

Additional observations from a re-analysis of the deposited data

Results flagged for a closer look

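Signals in transcripts without a gene match stayed outside the comparison of genes. A predicted mRNA of 2691 nt held the most reads in every library, with 10.2, 26.1 and 11.8% in HH27 replicates 1 to 3, against 32.9, 74.3 and 24.2% in HH24 replicates 1 to 3. The stages overlapped, since HH27 replicate 2 was above HH24 replicate 3. In the HH24g libraries it held 8.62 and 15.2%. When 8558 unmatched transcripts were added as features, 7 of them were called by limma, 1 higher and 6 lower in HH27. The lower one with the largest change had 0 reads in each HH27 library, against 41, 9 and 36 reads in HH24 libraries. The higher one, a non-coding RNA of 16332 nt, had 201, 74 and 311 reads in HH27 libraries, against 27, 5 and 29 reads in HH24 libraries. Their genes were not analysed here. With 3 libraries a stage, single libraries were not tested as outliers.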

How the results depend on the processing

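The 97 calls (42 higher and 55 lower in HH27) depended most on the HH24 libraries. With 1 library left out, the total ranged from 21 to 81, the higher calls from 5 to 39 and the lower calls from 16 to 47. The total was 24 without HH24 replicate 1, 63 without replicate 2 and 21 without replicate 3, against 71 to 81 without 1 HH27 library, where the lower calls were 35 without HH27 replicate 3. DESeq2 gave 212 (124 higher, 88 lower), and 202 (126 higher) without HH24 replicate 2. A minimum of 10 reads in every library left 2638 genes and 43 calls (11 higher, 32 lower). No limit on fold change gave 161 (74 higher, 87 lower). Adding unmatched transcripts gave 36 (9 higher, 27 lower). Together with leaving out HH24 replicate 2, a combination chosen after seeing the data, it gave 9 (1 higher, 8 lower). The 5 other HH27 and HH24 libraries alone gave 49 (15 higher, 34 lower). The cause of these differences in count was not tested. edgeR (108), DESeq2 size factors (100), no filter (90), quality weights (101), only the 6 libraries (100) and removal of haemoglobin, mitochondrial and rRNA genes (98) stayed within 1.5 times. The replicate block gave 115 (52 higher, 63 lower). The replicate numbers are not known to link libraries of the stages, which came from different embryos. After the mean of each stage was subtracted from the log2 CPM of every gene, same-numbered libraries correlated at 0.0059, 0.040 and 0.033. In these deviations, not every library correlated best with its own number. Over the 20 genes named at the extremes of fold change, 268 values kept direction and call, 111 kept direction and lost the call, and none reversed. These genes were chosen as called and with stages that did not overlap. The kept directions largely follow from that choice and are no separate support. List medians moved by more than the spread in 80 of 629 values. Changes of sign were not counted for list medians.

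Depth limits the low genes. In HH24 replicate 2, with 1 read worth 7.80 CPM, a gene at a few CPM is seen as 0 or as several times its level, and MYCN and COL5A2 were at 0 there while the other HH24 libraries had over 50 reads each. Gene sums cover matched transcripts only, so a gene can hold part of its reads. Beyond the fits above, the part of unmatched reads and of blood content in the results was not tested.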

Other observations

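Called genes lay next to each other on the chromosome in 7 pairs, and both genes of every pair moved in the same direction. The pairs were HOXD13 with EVX2 and EVX2 with LNPK, HOXA10 with HOXA11, PARP16 with IGDCC3 and IGDCC3 with IGDCC4, SALL4 with ATP9A, and MYO3AL with ARHGEF39. They hold 12 of 94 called protein-coding genes. In the group on chromosome 10, PARP16, an enzyme of the endoplasmic reticulum, had 15.7, 16.5 and 17.7 CPM in HH27 libraries, against 56.7, 62.4 and 64.6 CPM in HH24 libraries. DPP8, a dipeptidyl peptidase gene on the far side of IGDCC4, had 4.60, 48.6 and 5.19 CPM in HH27 libraries, against 38.5, 39.0 and 37.2 CPM in HH24 libraries. HH27 replicate 2 alone was thus at the HH24 level, and DPP8 was not called (adjusted p = 0.163 by limma). HACD3, the next gene, had a log2 fold change of -0.11. ATP9A, a lipid flippase gene beside SALL4, had a log2 fold change of -1.35, against -1.45 for SALL4. These genes were picked after their values were seen, and adjacency was not tested.

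A further set of genes had no read in any HH24 library and at least 10 CPM in every HH27 library. There were 13, of which 1, WDR81, was called. WDR81 did have reads in the HH24g libraries, at the levels given above. COL4A2, a collagen chain of basement membranes, had 53.8 ± 12.6 CPM in HH27 (SD, n = 3) and 0 reads in HH24. This was 37.4-fold higher against a limit of 3 reads over the 3 HH24 libraries, which covers counting error only. It did not pass the test (adjusted p = 0.142 by limma). In the other direction, KCNH6, a potassium channel gene, was the 1 gene with no read in HH27 and at least 10 CPM in every HH24 library (adjusted p = 0.0926 by limma). The counts of 13 and 1 cannot be compared, since depth differed. Scaled depth was 934614, 128271 and 1022438 reads in HH24 libraries, against 2609526, 1029752 and 3849969 in HH27 libraries. A total of 0 reads is thus easier to reach in HH24.

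The matched transcript with the most reads belonged to PLEK, a protein of platelets and leukocytes. Its share of all reads was 2.82, 2.46 and 2.56% in HH27 libraries, against 7.26, 5.19 and 6.15% in HH24 libraries. PTPRC, a surface marker of leukocytes, had a log2 fold change of 0.07. Without PLEK the leukocyte genes summed to 43.7 to 54.8 CPM in HH27 and 47.1 to 62.4 CPM in HH24. PLEK was not called with all libraries (adjusted p = 0.0985 by limma) and was called lower without HH24 replicate 2 (log2 fold change -1.92, adjusted p = 0.00650). PKIA, an inhibitor of protein kinase A, was called lower in both fits, with log2 fold changes of -1.93 and -1.73. Its share was 1.66, 1.62 and 1.51% in HH27 libraries, against 4.16, 0.849 and 2.96% in HH24 libraries. The HH24 library with the lowest share was replicate 2, where most reads matched no gene. The call rests on CPM, which leave out unmatched reads. In CPM, PKIA had 21658, 26638 and 19956 in HH27 libraries, against 96049, 205643 and 53683 in HH24 libraries. On that scale replicate 2 was the highest HH24 library. In the HH24g libraries, grafts of stage HH24, PKIA had 23374.1 and 25073.5 CPM, and PLEK took 2.83% of reads in each. For both genes these were near the HH27 values. The high values thus belonged to the ungrafted HH24 libraries, and whether they follow stage was not tested.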
